A study of Mus musculus with 4 samples.

Results

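Of the 84 genes on a mouse angiogenesis PCR array, 7 were chosen by symbol for their part in vascular tone, sphingosine-1-phosphate (S1P) signalling and the response to hypoxia. They are *Nos3*, *Edn1*, *Ptgs1*, *Akt1*, *Sphk1*, *S1pr1* and *Hif1a*, and all 7 had a ratio in both array runs, as did 78 of the 84 array genes. Total RNA came from ischemic adductor and gastrocnemius muscle of FVB mice on day 21 after surgery on the femoral vessels. Both groups received L-NAME, a competitive inhibitor of nitric oxide synthase, at 40 mg/kg by intraperitoneal injection, given before the operation and on postoperative days 1 to 3. The E-sel/AAV2/2 group was injected in the muscle with an adeno-associated vector carrying mouse E-selectin, and the control group with LacZ/AAV2/2, the same vector carrying the bacterial *LacZ* gene, at 1e11 viral genomes in each case. The mice were male and female FVB/NJ aged 10 to 12 weeks, and which of them entered the arrays is not given. The promoter that drives the transgene is not given in the sources used here, and the host keeps its own E-selectin gene. L-NAME and ischemia were shared by the 2 groups, so the comparison is between the transgenes and no untreated muscle is in it.

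Each group was 1 RNA pool, made from 3 mice according to the sample records, and each pool was run on 2 arrays. A difference between runs therefore reflects the assay and not the mice, a difference between pools has no replicate check, and no p-value is given. For each gene the deposited value is a ratio of E-sel/AAV2/2 over LacZ/AAV2/2 within a run, relative to *Gapdh*, and no value of a single sample can be given for a named gene. A ratio compares the amount of 1 transcript between 2 pools and carries no information on how abundant that transcript is beside another gene. In whole muscle, fewer cells of a type and less RNA per cell cannot be told apart.

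The genes fall into 3 connected systems. *Nos3* encodes endothelial nitric oxide synthase, which relaxes vessels and is the target of L-NAME, *Edn1* encodes the precursor of the vasoconstrictor endothelin-1, and *Ptgs1* encodes cyclooxygenase-1, the constitutive enzyme of prostanoid synthesis that supplies thromboxane in platelets and prostacyclin in endothelium. *Sphk1* encodes the kinase that makes S1P from sphingosine, and *S1pr1* encodes the main endothelial S1P receptor, which stabilises vessels. *Hif1a* encodes the oxygen-regulated subunit of hypoxia-inducible factor, a transcription factor regulated in large part through protein stability, and *Akt1* encodes a kinase that links growth factor and S1P receptors to phosphorylation of the nitric oxide synthase. Hypoxia-inducible factor binds DNA at a short core of letters, ACGTG or GCGTG.

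That core was searched on both strands in the RefSeq start-site windows of GRCm38.p6, each of 300 bases from 250 before to 50 after an annotated start. Windows were available for 5 of the 7 genes (*Edn1*, *Akt1*, *Sphk1*, *Hif1a* and *Ptgs1*; 10 windows, as some genes have several starts). At least 1 core was found in 9 of the 10 windows, or in 4 of the 5 genes, against 43.8% of all 32851 windows, where 5 of the 10 windows belong to *Sphk1* and some overlap. None of these letters were in the *Ptgs1* window. The stretches shown are the 30 bases around the first core of each gene, from the window with the most cores, to place the motif of the *Hif1a* product beside the genes measured with it. Capitals mark the core, in which CACGT is ACGTG on the opposite strand and CACGTG holds it on both strands, as 2 overlapping matches.
Edn1 (chr13:42301485-42301514, plus strand): tatctctggctgCACGTtgcctgtgggtga
Sphk1 (chr11:116532337-116532366, plus strand): catacaccggggCACGTGtgcattttcacc
Hif1a (chr12:73907720-73907749, plus strand): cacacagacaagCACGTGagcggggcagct
Akt1 (chr12:112675053-112675082, minus strand): tcctgggcgataGCGTGgactactaaatct
The core began 22 bases into the transcript in *Edn1*, and 95, 135 and 186 bases before an annotated start in *Sphk1*, *Hif1a* and *Akt1*. These matches are a description of letters, and binding was not measured.

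The direction of most of the 7 genes depended on the reference. Relative to *Gapdh*, 6 of the 7 were higher in E-sel/AAV2/2, as were 82.1% of the 78 genes, and 3 (*S1pr1*, *Sphk1* and *Hif1a*) were more than 2-fold higher, against 17.9% of the 78. None of the 7 was more than 2-fold lower on that scale, against 1.28%. The count past 2-fold upward depended on the run, with 5 of the 7 in run 1 alone, against 28.2% of the 78, and 1 (*S1pr1*) in run 2 alone, against 11.5%. Relative to the mean of the 5 housekeeping genes named in the study's methods, 4 of the 7 were above 1, against 25.6% of the 78, none was more than 2-fold higher, against 3.85%, and 1 (*Edn1*) was more than 2-fold lower, against 11.5%. On this scale 5 of the 7 were above 1 in run 1 alone, against 28.2%, and 2 in run 2 alone, against 15.4%. Upward, 2 passed 2-fold in run 1, against 7.69% of the 78, and 0 in run 2, against 3.85%. Downward, 1 passed it in run 1, against 5.13%, and 2 in run 2, against 20.5%. The median log2 fold change of the 7 genes was 0.06 with the 5 housekeeping genes, beside -0.45 for the 78, and 0.96 with *Gapdh*, beside 0.45. By run it was 0.29 in run 1 and -0.78 in run 2 with the 5 housekeeping genes, beside -0.29 and -0.61, so the genes stood above the array in run 1 and below it in run 2. In run 1, 6 of the 7 were above the median of the array, and in run 2, 3 were.

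**Figure D1:**
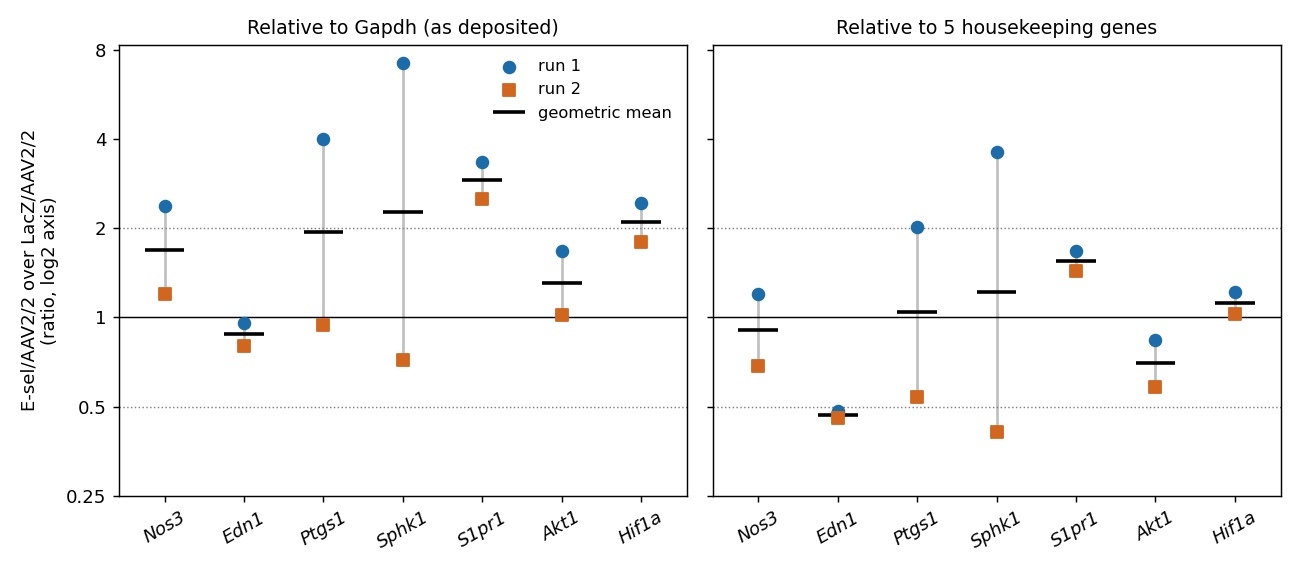
Ratio of E-sel/AAV2/2 over LacZ/AAV2/2 on a log2 axis for the 7 genes, relative to Gapdh (left) and to the mean of 5 housekeeping genes (right). Circles are run 1, squares are run 2, bars are their geometric mean and dotted lines mark 2-fold. Edn1 has its 2 runs close together and the lowest geometric mean, while Sphk1 runs from 7.21 to 0.717 on the left, its run 2 below both runs of Edn1.

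Among the genes of vascular tone, *Edn1* was the lowest and its runs lay closest together. The deposited ratio of *Edn1* was 0.959 in run 1 and 0.801 in run 2, which became 0.482 and 0.458 with the 5 housekeeping genes, a fold change of 0.470. Both runs were below 1 on either scale, although run 1 relative to *Gapdh* (0.959) was so close to 1 that it gives little direction by itself. *Edn1* was ranked 75 and 66 of the 78 genes, counted from the highest ratio. It lay just past the 2-fold limit at the same fold change as *Tnfsf12*, with *Mdk* at 0.481 and *Flt1* at 0.483 nearer the limit and *Fn1* at 0.503 and *Mmp2* at 0.507 on its other side. *Tnfsf12* and *Mdk* were named after their values were seen.

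*Nos3* was on the upper side of the array in run 1 and near its middle in run 2. Its deposited ratio was 2.38 in run 1 and 1.20 in run 2, both above 1 relative to *Gapdh*, with a fold change of 1.69. With the 5 housekeeping genes the runs fell on opposite sides of 1, at 1.20 and 0.684, with a fold change of 0.904. Its rank was 19 in run 1 and 36 in run 2.

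Setting *Nos3* against *Edn1* within a run removes the reference, because it divides out. The ratio of *Nos3* was 2.48 times that of *Edn1* in run 1 and 1.49 times in run 2, with a geometric mean of 1.93 (log2 difference 0.94 ± 0.52, SD, n = 2 runs of 1 pool each). *Nos3* was thus higher than *Edn1* in both runs, and the runs differed in how far. The 3 reverse transcription control wells of a run differed at most 1.14-fold and the 3 positive PCR control wells at most 1.17-fold in the same ratios. Gene wells were not repeated within a run, and their gap between runs was 1.34-fold at the median of the 78 genes, 1.99-fold for *Nos3* and 1.20-fold for *Edn1*.

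*Ptgs1* gave no stable value. Its deposited ratio was 4.00 in run 1 and 0.946 in run 2, and with the 5 housekeeping genes it was 2.01 and 0.540. The fold change of 1.04 with the 5 housekeeping genes is the mean of a run above 2-fold and a run below 1, 3.72-fold apart. Relative to *Gapdh* the runs were 4.23-fold apart, the 4th largest gap of the 78 genes on that scale. Its rank dropped from 6 to 60. Within runs its ratio was 1.68 times that of *Nos3* in run 1 and 0.790 times in run 2, so the order of the constitutive cyclooxygenase and the nitric oxide synthase turned between runs.

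The S1P pair divided into a gene that repeated and a gene that did not. *S1pr1* had deposited ratios of 3.34 and 2.51, the only gene of the 7 that was more than 2-fold higher relative to *Gapdh* in each run. Array genes outside the 7 were so too, among them *Lep*, *Tgfa* and *Tnf*. The share of the 78 that passed 2-fold in each run is not given, so this is not a trait particular to *S1pr1*. With the 5 housekeeping genes it was at 1.68 and 1.44, a fold change of 1.55, and it was ranked 10 and 5 of 78. *Sphk1* had deposited ratios of 7.21 and 0.717, or 3.63 and 0.410 with the 5 housekeeping genes. The deposited ratios were 10.1-fold apart, the 2nd largest gap of the 78 genes after *Timp1* at 50.2-fold, and the rank went from 4 to 70. Its runs were 8.85-fold apart with the 5 housekeeping genes, and the fold change of 1.22 on that scale describes neither run.

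Within run 1 the ratio of *Sphk1* was 2.16 times that of *S1pr1*, and within run 2 it was 0.285 times that of *S1pr1*. The geometric mean of 0.785 (log2 difference -0.35 ± 2.06, SD, n = 2 runs) was smaller than the spread between runs, and no direction can be given for kinase against receptor. Relative to *Gapdh*, the ratio of the receptor differed 1.33-fold between runs and that of the kinase 10.1-fold. The cycle at which a well passed the detection limit, its threshold cycle, is not known for these genes, and whether *Sphk1* was detected late in a run was not tested.

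*Hif1a* repeated closely. Its deposited ratios were 2.43 and 1.80, a 1.35-fold gap that is near the median gap of the array (1.34-fold), and its rank was 18 and 11. With the 5 housekeeping genes both runs were above 1, at 1.22 and 1.03. *Akt1* had deposited ratios of 1.67 and 1.02, and 0.840 and 0.583 with the 5 housekeeping genes, so both runs were at or above 1 on the first scale and below 1 on the second. Its rank was 35 and 54. *Epas1*, which encodes HIF-2α and was named after its values were seen, had 1.64 and 1.06, close to *Akt1* and below *Hif1a* in each run.

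**Figure D2:**
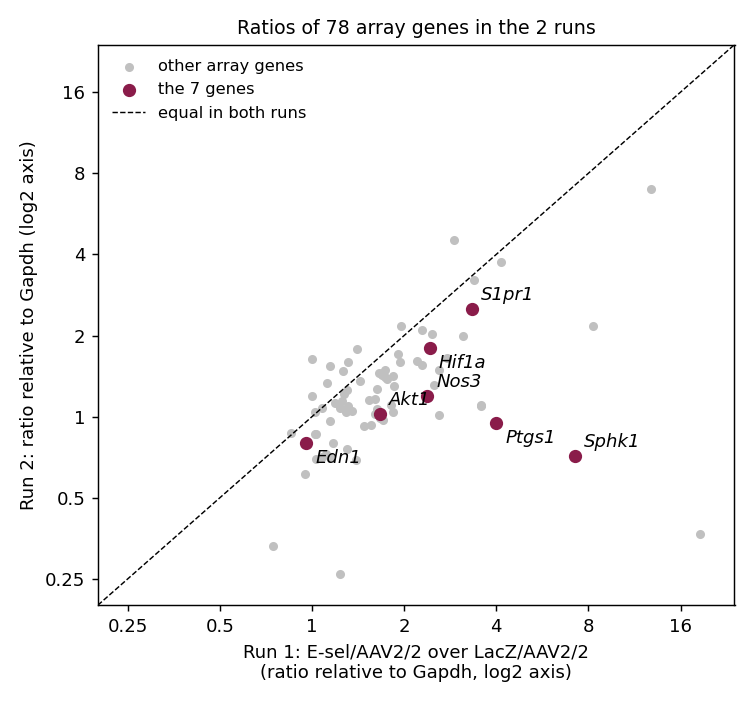
Deposited ratio of 78 array genes in run 1 (horizontal) and run 2 (vertical), relative to Gapdh, both on log2 axes, with the 7 genes in colour and the dashed line where the runs are equal. All 7 lie below the line, Ptgs1 and Sphk1 far from it, and S1pr1 and Hif1a near its upper part.

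All 7 genes had a higher ratio in run 1 than in run 2, relative to *Gapdh*, as did 66 of the 78 array genes, and over the array run 1 was 1.31 times run 2 at the median. The gap between runs exceeded 2-fold for 2 of the 7 (*Ptgs1* and *Sphk1*), against 12.8% of the 78. With the 5 housekeeping genes 4 of the 7 had the same direction in both runs (*S1pr1* and *Hif1a* above 1, *Edn1* and *Akt1* below 1), against 82.1% of the 78. The order of the genes within a run does not depend on the reference or on a shift of the whole run.

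From the highest ratio down, it was *Sphk1*, *Ptgs1*, *S1pr1*, *Hif1a*, *Nos3*, *Akt1* and *Edn1* in run 1 and *S1pr1*, *Hif1a*, *Nos3*, *Akt1*, *Ptgs1*, *Edn1* and *Sphk1* in run 2. Of the 21 pairs of the 7 genes, 11 pointed the same way in both runs, and each of the other 10 pairs holds *Ptgs1* or *Sphk1*, which had the largest gaps between runs among the 7. *Edn1* was below *S1pr1* by more than 2-fold in both runs (0.287 and 0.319 times) and below *Hif1a* likewise (0.395 and 0.444 times), the 2 pairs of the 21 that passed 2-fold in both runs in 1 direction. Pairs of the other array genes were not counted, so these counts of pairs show nothing particular to the 7 genes. The receptor *S1pr1* stood above *Hif1a* by 1.38 and 1.39 times. *Nos3* was 0.979 times *Hif1a* in run 1 and 0.664 times in run 2. *Akt1* was below *Nos3* in both runs, *Nos3* being 1.42 and 1.17 times *Akt1*.

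**Figure D3:**
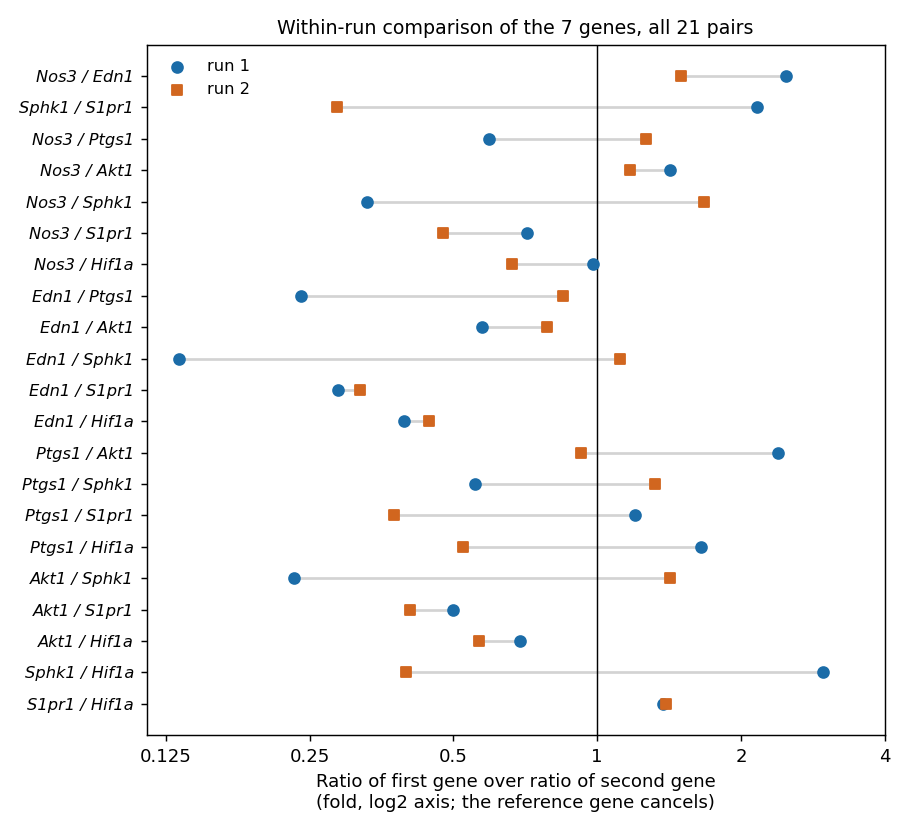
For each of the 21 pairs, the ratio of the first gene divided by that of the second within run 1 (circles) and run 2 (squares), on a log2 axis, so that the reference gene cancels. Nos3 over Edn1 is above 1 in both runs (2.48 and 1.49), and Sphk1 over S1pr1 is on opposite sides of 1 (2.16 and 0.285).

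The housekeeping genes differed from each other, and the choice among them shifts all 7 genes alike. Averaged over the runs, the ratio relative to *Gapdh* was 1.24 for *Hsp90ab1* (a heat shock protein), 2.26 for *Gusb* (β-glucuronidase), 2.35 for *Actb* (β-actin) and 3.45 for *B2m* (β2-microglobulin, the light chain of MHC class I). *Gapdh*, a glycolytic gene, was at 0.503 and 0.571 of the mean of the 5 in the runs. Over 10 references, *Edn1* was below 1 with all 10, from 0.254 with *B2m* to 0.877 with *Gapdh*, and *S1pr1* was above 1 with 9, from 0.841 with *B2m* to 2.90 with *Gapdh*. Each gene was highest with *Gapdh*, so *Edn1*, being below 1 with *Gapdh*, had to be below 1 with the rest. The 10 references are thus not separate checks of that direction. The other 5 genes lay above or below 1 depending on the reference. *Sphk1* was above 1 with 8 references, *Hif1a* and *Ptgs1* with 6, *Nos3* with 5 and *Akt1* with 4. With *Actb* alone 1 of the 7 (*S1pr1*) was above 1, as were 8 of the 78 array genes, and with *B2m* alone 0 of the 7 and 4 of the 78 were.

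**Figure D4:**
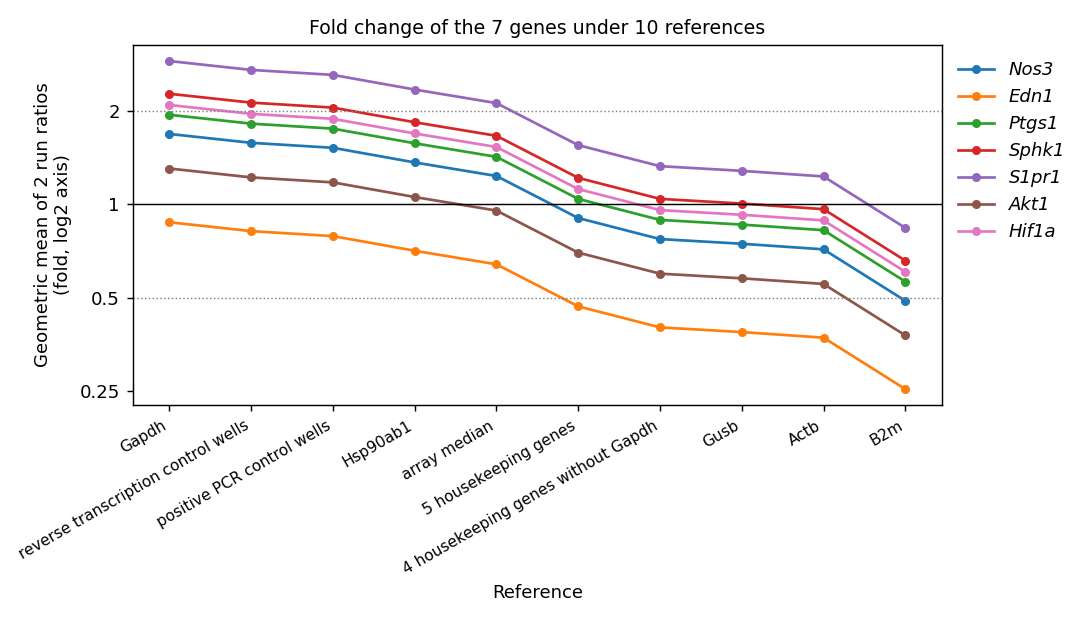
Geometric mean of the 2 run ratios (log2 axis) of each of the 7 genes under 10 references, ordered from Gapdh to B2m, with dotted lines at 2-fold. The lines are parallel because a reference shifts all genes alike. Edn1 runs from 0.877 to 0.254, below 1 throughout because it is so with Gapdh, which gives the highest values. S1pr1 drops below 1 only with B2m (0.841).

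Genes that hypoxia is known to raise through this factor were not of 1 direction. Of 8 such genes measured in both runs, 4 were above 1 and 4 below relative to the 5 housekeeping genes, against 25.6% and 74.4% of the 78. With that reference 1 (*Lep*) passed 2-fold upward, against 3.85%, and 2 (*Edn1* and *Flt1*) passed it downward, against 11.5%. Their median log2 fold change was -0.04, beside -0.45 for the array. The median differed in sign between runs, at 0.20 in run 1 and -0.51 in run 2, beside -0.29 and -0.61. Relative to *Gapdh*, 6 of the 8 were above 1, against 82.1% of the 78, and 4 (*Lep*, *Tgfa*, *Timp1* and *Pgf*) passed 2-fold upward, against 17.9%. None passed it downward, against 1.28%. On the *Gapdh* scale 4 passed 2-fold upward in run 1, against 28.2% of the 78, and 2 did in run 2, against 11.5%. Downward on that scale 0 did in run 1 and 1 (*Timp1*) in run 2, against 0% and 3.85%. With the 5 housekeeping genes 2 passed it upward in run 1, against 7.69%, and 1 in run 2, against 3.85%. With that reference 1 passed it downward in run 1, against 5.13%, and 3 in run 2, against 20.5%. *Vegfa*, the central angiogenic factor, was at 0.578 and 0.878 with the 5 housekeeping genes, lower in run 1 than in run 2, the reverse of *Hif1a*. *Flt1*, a VEGF receptor, was at 0.578 and 0.404, and *Angpt2*, the antagonist of Tie2 signalling, at 0.840 and 0.563. *Pgf*, placental growth factor, was at 1.57 and 1.13. *Lep* (leptin) was at 6.44 and 4.01, and *Tgfa*, a ligand of the EGF receptor, at 1.70 and 1.84. *Timp1*, an inhibitor of matrix metalloproteinases, was at 9.30 and 0.211, on opposite sides of 1 as *Sphk1* was.

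Of 10 receptors and ligands that signal to *Akt1*, all 10 were above 1 relative to *Gapdh* and 8 were below 1 relative to the 5 housekeeping genes, beside 82.1% and 74.4% of the 78 array genes. Their median log2 fold change was 0.65 on the first scale and -0.25 on the second, beside 0.45 and -0.45 for the array. None passed 2-fold on the second scale, where 3.85% of the 78 did so upward and 11.5% downward. On the first scale 1 did, the receptor *Fgfr3* at 2.06, against 17.9% upward. *Igf1* (insulin-like growth factor 1) was at 1.15 and 0.890 with the 5 housekeeping genes, *Hgf* (hepatocyte growth factor) at 0.978 and 0.909, and *Erbb2*, a receptor of the EGF family, at 0.857 and 0.556. *Egf* was at 0.543 and 0.616, the lowest of the 10 by its fold change of 0.578, although *Erbb2* was lower in run 2. *Akt1* itself, with a fold change of 0.700, lay between *Erbb2* at 0.690 and *Vegfa* at 0.712.

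*Nos3*, *S1pr1* and *Edn1* are expressed strongly in endothelium, so 7 endothelial markers were set beside them. With the 5 housekeeping genes 6 of the 7 markers were below 1, against 74.4% of the 78, with a median log2 fold change of -0.26 beside -0.45 for the array. By run, however, their median was -0.50 and -0.79, beside -0.29 and -0.61 for the array, and so below it in each run. Relative to *Gapdh* 4 were above 1, against 82.1%, with a median of 0.64 beside 0.45. On that scale too the median of the markers was below the array in each run, at 0.49 and 0.02 beside 0.7 and 0.2. All 7 were above 1 in run 1 alone relative to *Gapdh*, against 92.3%, and 4 in run 2, against 71.8%. With the 5 housekeeping genes the adhesion gene *Pecam1* was at 1.11 and 0.921, the receptors *Tie1* at 1.31 and 0.579, *Tek* at 0.706 and 1.02, and *Kdr* at 0.851 and 0.819. The junction gene *Cdh5* was at 0.701 and 0.396, *Eng* (endoglin) at 0.590 and 0.458, and *Flt1* at 0.578 and 0.404. *S1pr1* was above all 7 markers in both runs, and *Edn1* was below all 7 in run 1. In run 2 *Edn1* equalled *Eng* and was above *Cdh5* and *Flt1*. *Nos3* lay within the range of the markers in both runs. The markers thus differed among themselves, and the part of endothelial cell number in the values of these genes was not tested.

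Of the other cells that could contribute, *Fgf6*, a growth factor gene of skeletal muscle, was at 0.429 and 0.497 with the 5 housekeeping genes, close to *Edn1*. *Lep*, made by adipocytes, is given above. With the same reference the inflammatory cytokine genes *Tnf* (2.08 and 2.15) and *Il6* (4.16 and 1.24) were above 1 in both runs and *Il1b* (0.503 and 0.934) was below 1. Relative to *Gapdh*, however, *Il1b* was at 1 in run 1 and 1.64 in run 2, so its direction depended on the reference. *Ifng* had no ratio and *Csf3* had a ratio in run 2 only. The platelet gene *Pf4*, which would bear on *Ptgs1*, is not among the array symbols. The part of these cells in the 7 genes was not tested, and since only ratios are at hand their levels, and with them the identity of the tissue, cannot be checked.

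**Figure D5:**
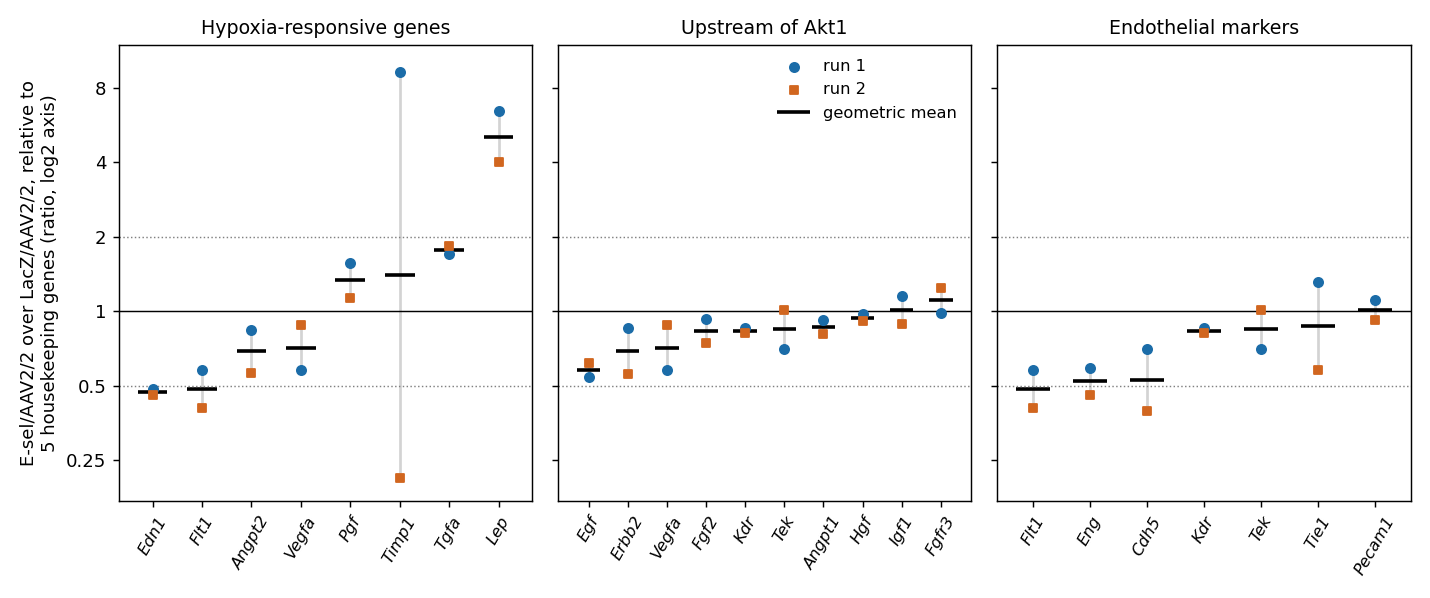
Ratio relative to 5 housekeeping genes (log2 axis) for hypoxia-responsive genes, genes upstream of Akt1 and endothelial markers, ordered by geometric mean (bars), with run 1 as circles and run 2 as squares. Edn1 and Flt1 lie below 0.5, Lep is highest at 5.08, and the genes upstream of Akt1 lie between 0.578 and 1.11.

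The array genes nearest to each of the 7 over the 2 runs, a distance from which the reference cancels, were found in log2 units over the 78 genes. *Edn1* lay nearest to *Fn1* (fibronectin, 0.14) and *Mmp2* (a matrix metalloproteinase, 0.16), and *Nos3* to *Lect1* (chondromodulin, 0.15) and *Tie1* (0.27). *Hif1a* lay nearest to *Itgb3* (integrin β3, 0.17) and *Pecam1* (0.21), and *Akt1* to *Pdgfa* (a platelet-derived growth factor) and *Angpt2* (0.05 for each). *S1pr1* lay nearest to *Pgf* (0.35) and *Tgfa* (0.36), and *Ptgs1* to the chemokine gene *Cxcl1* (0.26) and *F2* (prothrombin, 0.28), which had ratios of 3.58 and 3.56 in run 1 and 1.09 and 1.10 in run 2. *Sphk1* had no near neighbour, its closest genes being *Ptgs1* at 0.94 and *Cxcl1* at 1.18. With 2 runs such a likeness rests on 2 values per gene.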

How the data were processed

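RT-qPCR was run with SYBR Green on 96-well plates holding 84 angiogenesis genes, 5 housekeeping genes and control wells. The labels name RNeasy extraction with DNase I, and the methods TRIzol. The labels state pools of 3 mice, and the methods 3 to 6 mice per group. The authors deposited linear ratios, 2 to the power of minus ΔΔCt, formed run by run against *Gapdh* (equal to 1 in both runs). Their log2 is a whole hundredth in all 183 ratios (tolerance 0.0001 log2), and 9 entries have no ratio (6 empty, 3 spreadsheet errors). These run ratios were used as measurements, since no other values carry gene names. The authors also deposited threshold cycles by plate position without gene names. Of the wells other than *Gapdh*, 0 had both ratios given by the cycles of any position (tolerance 0.006 log2), so the cycles were not used for named genes and sample-level values are not given.

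In each run the average of the 5 housekeeping genes was subtracted from every gene on the log2 scale, and fold changes are geometric means over the 2 runs. The limma test of the methods was not run, because the runs repeat 1 pool a group and leave no residual degrees of freedom among samples. The 2-fold limit is that of the study. Named genes are the 7, the housekeeping genes, the genes of the lists and the 2 nearest array genes by Euclidean distance over the runs, and *Mdk*, *Tnfsf12* and *Epas1* were named outside this rule, after their values were seen. A gene first placed on the hypoxia list was left out for a reason unrelated to its values and is not reported here, so the counts and median of that list cover the other 8 genes only. The 7 genes, lists and alternatives were chosen with earlier results of these data known. All 7 symbols matched RefSeq (GRCm38.p6). The calculation was tested on simulated ratios. Python 3.11.15, numpy 2.4.6, pandas 2.3.3 and matplotlib 3.10.9 were used.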

Additional observations from a re-analysis of the deposited data

How the results depend on the processing

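Direction and counts depended on the reference, and *Sphk1* and *Ptgs1* on the run. With the 5 housekeeping genes 0 of the 7 genes passed 2-fold upward, 1 passed it downward and 4 were above 1, with a median log2 fold change of 0.06. *Gapdh* gave 3, 0 and 6 with a median of 0.96, the reverse transcription control wells 2, 0 and 6 with 0.865, the positive PCR control wells 2, 0 and 6, *Hsp90ab1* 1, 0 and 6, and the array median 1, 0 and 5. *Actb* gave 0, 1 and 1, *Gusb* 0, 1 and 2, and *B2m* 0, 3 and 0 with a median of -0.825. The 4 housekeeping genes without *Gapdh*, a reference chosen after seeing the data, gave 0, 1 and 2. The share of the 78 past 2-fold is given here only with the 5 housekeeping genes (3.85% upward, 11.5% downward) and with *Gapdh* (17.9% and 1.28%). Counts past 2-fold with the other references have no such share beside them and show nothing particular to the 7 genes. Of the 78 array genes, 20 were above 1 with the 5 housekeeping genes, 64 with *Gapdh*, 62 and 60 with the control wells, 50 with *Hsp90ab1*, 39 with the array median, 8 with *Actb*, 9 with *Gusb*, 4 with *B2m* and 11 with the 4 housekeeping genes without *Gapdh*. The arithmetic mean of the run ratios placed 1 gene more than 2-fold higher (*Sphk1*), a 1.5-fold limit 1 higher (*S1pr1*), and a 3-fold limit 0 lower. These counts also have no array share beside them. When each run was left out in turn, 0 to 2 genes passed 2-fold upward, against 3.85% to 7.69% of the 78. Downward, 1 to 2 passed it, against 5.13% to 20.5%. From 2 to 5 were above 1, against 15.4% to 28.2%, with medians from -0.778 to 0.288. Relative to *Gapdh*, 5 genes passed 2-fold upward in run 1, against 28.2%, and 1 in run 2, against 11.5%. *Nos3* over *Edn1* stayed above 1, from 1.49 to 2.48, while *Sphk1* over *S1pr1* ranged from 0.285 to 2.16, and was 1.35 with arithmetic means. The fold change ranged from 0.410 to 3.63 for *Sphk1* and from 0.211 to 9.30 for *Timp1*. Of 84 alternative values for single genes among the 7, 38 moved by more than the SD between runs. Another count was of side, where 23 lay on the other side of 1 from the reported value, 1 of them (*Sphk1* at 0.410 in run 2) past 2-fold. The 84 include the values with a run left out and the arithmetic means. Neither kind could move by more than that SD, because the SD comes from the same 2 runs. No paired analysis was possible because 1 pool a group leaves nothing to fit or test; the deposited ratios are themselves formed within runs. The single pool a group is a limit that more arrays of the same pools would not lift.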
